A study of Mus musculus with 8 samples.

Results

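The genes described here are the 8 that make, organise and bind hyaluronan in a cartilage or fibroblast matrix: the hyaluronan synthases Has1, Has2 and Has3, the large proteoglycans versican (Vcan) and aggrecan (Acan), the link proteins Hapln1 and Hapln3, and the cell surface receptor Cd44. They were chosen by symbol, with no measured value in the rule, and are 8 of the 28001 features counted in each library. Each of the 8 had at least 1 UMI (unique molecular identifier, 1 counted transcript molecule) in each of the 8 libraries.

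The study followed mesenchymal progenitors of the mouse forelimb by 10x single-cell RNA sequencing. The 6 sorted libraries hold tdTomato+ cells of C57BL/6J embryos of the genotype Hic1 CreERT2/CreERT2; Rosa26 LSL-tdTomato/tdTomato, whose dams received 7.5 mg tamoxifen at E10, so that cells expressing Hic1 at that time and their progeny carried the reporter. They cover daily steps of development from E11.5 through E14.5 and then E16.5, where cells came from a proximal segment around the elbow and a distal segment of the distal zeugopod and autopod. Libraries up to E14.5 held entire forelimbs, so a change of stage from E14.5 to an E16.5 segment and a change of region cannot be told apart. Another 2 libraries, labelled as replicates 1 and 2, hold reporter-positive and reporter-negative cells together from E11.5 limbs of the same strain, driver and treatment, and are called whole limb here. The sorted libraries pooled several embryos, and the study does not state the number of embryos for the whole limb libraries. The sort removed cells bearing blood or endothelial surface markers, and the driver labels only the cells that expressed Hic1 when tamoxifen was present. With 1 library for each sorted stage or segment there is no replicate error between stages, and intervals given below (exact, 95%) cover counting error only.

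Hyaluronan is a long unsulfated sugar polymer that the synthases extrude through the plasma membrane. Aggrecan and versican, proteoglycans of the lectican family with chondroitin sulfate chains, attach to it by their N-terminal domain, and link proteins lock the joint. Aggrecan with Hapln1 gives cartilage its resistance to compression, whereas versican fills the matrix of condensing mesenchyme and of loose connective tissue. Has2 is the main synthase of the developing limb, and Cd44 is the best known receptor by which cells hold a hyaluronan coat.

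The promoters of Vcan, Acan and Hapln1 are shown because these are the genes whose levels moved in opposite directions in the chondrocyte-like cells described below. Each run holds 250 bases before and 50 from the RefSeq transcription start, 5′ to 3′ on the gene's strand, in GRCm38.p6, and 6 of the 8 genes had one (Has2 and Has3 did not). Capitals mark a match to the CCAAT box (CCAAT or, on the other strand, ATTGG) or to the SOX core (ACAAT or ATTGT).
Vcan, chr13:89742463-89742762, minus strand: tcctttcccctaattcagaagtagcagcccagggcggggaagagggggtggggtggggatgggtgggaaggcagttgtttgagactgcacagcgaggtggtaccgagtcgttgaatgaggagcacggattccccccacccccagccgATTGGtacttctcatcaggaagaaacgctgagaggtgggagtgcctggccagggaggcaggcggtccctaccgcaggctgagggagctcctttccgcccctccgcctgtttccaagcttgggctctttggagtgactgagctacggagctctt
Acan, chr7:79052976-79053275, plus strand: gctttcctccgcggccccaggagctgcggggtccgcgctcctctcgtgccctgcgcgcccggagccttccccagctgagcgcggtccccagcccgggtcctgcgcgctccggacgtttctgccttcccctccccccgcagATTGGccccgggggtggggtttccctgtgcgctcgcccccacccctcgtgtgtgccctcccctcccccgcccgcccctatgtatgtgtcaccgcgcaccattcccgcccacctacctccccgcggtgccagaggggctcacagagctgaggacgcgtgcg
Hapln1, chr13:89540386-89540685, plus strand: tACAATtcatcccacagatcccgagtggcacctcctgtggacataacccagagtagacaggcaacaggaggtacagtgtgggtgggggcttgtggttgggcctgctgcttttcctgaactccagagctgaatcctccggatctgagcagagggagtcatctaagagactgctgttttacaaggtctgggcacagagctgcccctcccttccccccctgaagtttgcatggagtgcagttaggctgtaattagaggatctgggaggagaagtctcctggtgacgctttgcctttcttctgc
These RefSeq starts lie 3 bases (Vcan), 257 bases (Acan) and 840 bases (Hapln1) from the gene starts given next. The Acan window was 74.0% G or C, that of Vcan 61.0% and that of Hapln1 54.3%, against a median of 52.7% over 32851 mouse promoter windows of the same length. Vcan and Acan each held 1 CCAAT box and no SOX core, and Hapln1 held 1 SOX core and no CCAAT box. The CCAAT box was in 37.4% and the SOX core in 31.0% of all windows, so these matches are a description of the sequences and no sign of binding.

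The 8 genes lie at 6 places in the mouse genome (GRCm38). Hapln1 (chr13:89539796-89611652, plus strand) and Vcan (chr13:89655312-89742509, minus strand) face each other 43.7 kb apart, and Acan (chr7:79053483-79115099, plus) and Hapln3 (chr7:79115102-79131018, minus) meet with their 3′ ends 2 bases apart. Has1 is at chr17:17843323-17855205 (minus), Has2 at chr15:56665627-56694539 (minus, overlapped by the antisense gene Has2os), Has3 at chr8:106870242-106884566 (plus) and Cd44 at chr2:102811141-102901665 (minus). The UMIs are counted near the 3′ end of transcripts and are not comparable between genes, so each gene is compared only with itself.

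After removal of barcodes under 3000 UMIs or above 10% mitochondrial UMIs, 53085 of 57469 barcodes remained, 3165 to 11109 a library, with 31500092 to 234893903 UMIs in all and a median of 6788 to 18473 UMIs a cell. The E11.5 sorted library lost the most, with 74.2% of its barcodes kept. Between 0 and 48 cell barcodes were shared by any 2 libraries. The limb mesenchyme gene Prrx1 was at 201 to 309 UMIs per 1000000 (CPM) across sorted libraries, against 647 and 613 CPM for whole limb. tdTomato was at 427 to 1341 CPM across sorted libraries but 3.88 and 4.21 CPM for whole limb, and Hic1 at 22.0 to 38.0 against 0.702 and 0.741 CPM, so by these levels the libraries labelled whole limb held few reporter-positive cells. The reagent kit changed from v2 to v3 after E13.5, so a change of stage from E13.5 to E14.5 and a change of kit cannot be told apart. The study dissociated E11.5 and E12.5 forelimbs with Dispase, and later ones with Collagenase A, Pronase and DNase. A change of stage from E12.5 to E13.5 and a change of enzymes thus cannot be told apart either. A lower level in a sum over cells can be fewer cells of a type or less RNA in each cell, and these cannot be told apart in a library total.

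Among the synthases, Has2 rose through the whole series and Has1 appeared late. Has2 stood at 2.19 CPM at E11.5, then at 4.34, 9.14 and 34.1 CPM on the next 3 days, and at 43.4 in the E16.5 proximal and 58.5 in the E16.5 distal segment. Counting intervals of neighbouring sorted libraries did not overlap at any point of that order, and the whole limb libraries, at 6.33 and 5.95 CPM, lay between E12.5 and E13.5. With every cell thinned to 3000 UMIs, 0.727% of cells at E11.5 and 11.1% and 13.4% of cells at E16.5 (proximal and distal) held a Has2 UMI, against 0.327% of the epithelial-like cells of the proximal library.

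Has1 had 10, 22, 3 and 57 UMIs in the libraries from E11.5 to E14.5 (0.317, 0.498, 0.0661 and 0.425 CPM), and 8 and 6 in the whole limb libraries. The E13.5 level lay below those of E12.5 and E14.5 with intervals apart, on 3 UMIs, while E11.5 overlapped E12.5 and E14.5 and both whole limb libraries overlapped E13.5. At E16.5 it had 2887 UMIs in the proximal segment (12.3 CPM, interval 11.8 to 12.7) and 2637 in the distal (16.6 CPM, 15.9 to 17.2). The step from E14.5 to the E16.5 proximal segment was 28.9-fold (22.2 to 38.2), within one kit version.

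Has3 stayed rare. Its level ran from 0.194 CPM at E14.5 to 0.905 CPM at E12.5, with 16 to 137 UMIs in any sorted library, and it never reached the 10 CPM at which folds were called. In the E16.5 proximal segment, 39 of its 113 UMIs (34.5%) came from the 936 cells of the Krt1- and Krt14-bearing epithelial clusters, which held 15.3% of all UMIs, against 1.28% of Has1 and 1.39% of Has2 UMIs. Has3 was at 1.09 CPM in these cells. The 324 led by Krt14 had 28 UMIs (3.48 CPM) and the 612 led by Krt1 had 11 UMIs (0.395 CPM). Single clusters of other libraries were higher. At E12.5, 25 of its 40 UMIs came from an unnamed cluster of 553 cells led by Stmn2 and Mylpf (5.56 CPM). At E13.5, 10 of 25 came from an unnamed cluster of 264 cells led by Stmn2 and Lhx2 (6.11 CPM).

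Versican was present in every library and class. From E11.5 to E14.5 it had levels of 194, 149, 190.2 and 260.1 CPM, followed by 392 in the E16.5 proximal and 544 in the E16.5 distal segment. The whole limb libraries had 179 and 192 CPM. E12.5 was the lowest, E11.5 and E13.5 overlapped in their intervals, and the E16.5 libraries were the highest. The rise from E11.5 to the E16.5 proximal segment was 2.02-fold (1.97 to 2.08), and 1.73- to 2.36-fold over 6 other ways of selecting or weighting the cells.

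Aggrecan, the large proteoglycan of cartilage, started from almost nothing. It had 32 UMIs (1.02 CPM) at E11.5 and 95 (2.15 CPM) at E12.5, then 16.9 and 22.0 CPM on the following days, 126 in the E16.5 proximal and 55.9 in the E16.5 distal segment. The whole limb libraries held 20 and 13 UMIs (0.390 and 0.253 CPM), below every sorted library. No intervals of neighbouring sorted libraries overlapped, and the proximal segment stood above the distal.

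Hapln1, the link protein that joins aggrecan to hyaluronan in cartilage, was likewise scarce before E13.5. It was at 0.349 CPM at E11.5 (11 UMIs) and 0.837 at E12.5 (37 UMIs), whose intervals overlapped, and then at 9.41 and 21.1 on the following days, 138 in the E16.5 proximal and 61.7 in the E16.5 distal segment. Unlike Acan, it was higher in the whole limb libraries (2.83 and 3.04 CPM) than in the sorted E11.5 and E12.5 libraries.

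Hapln3, a link protein found outside cartilage, was rare, at 0.543 CPM at E12.5 to 1.28 CPM in the E16.5 proximal segment. It was 2.15-fold higher at E13.5 than at E12.5 (1.30 to 3.64) and 2.02-fold higher in the E16.5 proximal segment than at E11.5 (1.28 to 3.35), below the 10 CPM at which folds were called. Cd44 began at 2.63 CPM at E11.5 and had 5.88, 6.59 and 17.9 CPM on the next 3 days, 96.3 in the E16.5 proximal and 123 in the E16.5 distal segment. Its E12.5 and E13.5 intervals overlapped and all other sorted neighbours were apart, and the whole limb libraries were the lowest, at 1.31 and 1.25 CPM.

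**Figure D1:**
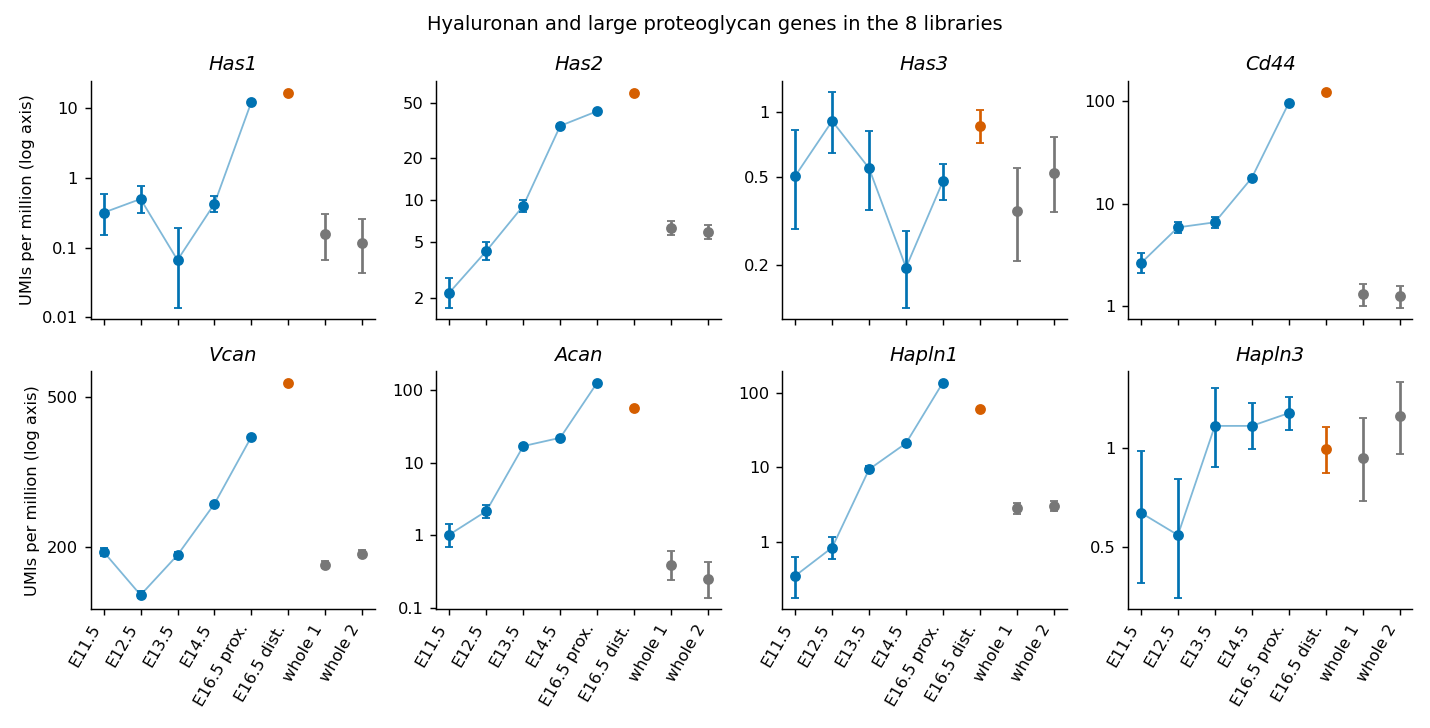
Level of each of the 8 genes (UMIs per 1000000, log axis) in the 6 sorted and 2 whole limb libraries, with exact 95% counting intervals as bars and 1 panel for each gene. Acan and Hapln1 climb by orders of magnitude to 126 and 138 in the E16.5 proximal library, Vcan varies between 149 and 544, and Has3 and Hapln3 stay near 1 or below.

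Each step between stages was also read on its own. A step was called when the ratio of CPM was at least 2 either way, counting only genes whose higher level reached 10 CPM, and with 1 library a side such a call has no replicate check. A gene under 10 CPM before a step could be counted only by rising. As few members reached 10 CPM early, the counts of called members do not give the timing. With no minimum the first 4 steps had 3, 5, 5 and 5 members past 2-fold. The share of all genes past 2-fold with no minimum was not counted. The no-minimum counts of members here and below therefore have no background and are a description only. From E11.5 to E12.5 no member of the 1 that reached 10 CPM was called, beside 3.27% of 8752 genes. From E12.5 to E13.5, Acan was called of 2 members, at 7.89-fold (6.36 to 9.87), beside 3.37% of 8726 genes, and Hapln1 rose 11.2-fold but ended just below 10 CPM. The dissociation enzymes changed at this step.

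From E13.5 to E14.5, 3 of 5 members were called and each rose, Has2 3.73-fold (3.38 to 4.14), Hapln1 2.24-fold (2.02 to 2.48) and Cd44 2.72-fold (2.41 to 3.08), beside 10.3% of 8825 genes. These members were at 9.14, 9.41 and 6.59 CPM at E13.5 and were counted only through E14.5, so the limit fixed their direction. With no minimum, 5 members were past 2-fold, among them Has3, which fell, with no share of all genes counted beside them. The kit changed at this step. From E14.5 to the E16.5 proximal segment, 4 of 6 were called, beside 13.9% of 8689 genes: Has1, Acan at 5.75-fold (5.53 to 5.97), Hapln1 at 6.54-fold (6.30 to 6.80) and Cd44 at 5.37-fold (5.15 to 5.6). Has2 and Vcan, at 1.27- and 1.51-fold, were not.

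Across the whole span, from E11.5 to the E16.5 proximal segment, 6 of 6 members at 10 CPM or more were past 2-fold and all rose (5 with no filter on cells, with cells weighted equally or with cells thinned, where Vcan fell short of 2-fold), beside 43.6% of 9325 genes, of which 1242 rose and 2826 fell. The median log2 ratio over all genes tested was -0.52. Hapln1 rose 395-fold from 11 UMIs (220.5 to 790.4), Acan 124-fold from 32 UMIs (88.0 to 182), Has1 38.7-fold from 10 UMIs (21 to 80.8), Cd44 36.5-fold, Has2 19.8-fold and Vcan 2.02-fold. Vcan was the member nearest the threshold. The others had at most 2.63 CPM at E11.5 and were counted only through their E16.5 level, so the limit fixed their call and direction. With no minimum, 7 members were past 2-fold, again with no share of all genes counted beside them.

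Within the E16.5 limb the cartilage pair was higher proximally. The distal matrix header named Cell Ranger 6.0.1 and the proximal one 3.0.2. In every comparison with the distal library, segment and processing version therefore cannot be told apart. Distal against proximal, 2 of 6 members were past 2-fold, beside 9.03% of 8508 genes: Acan was 2.26-fold and Hapln1 2.23-fold higher in the proximal segment. The other 4 were slightly higher distally, Has1 and Has2 1.35-fold, Vcan 1.38-fold and Cd44 1.27-fold. Below 10 CPM, Has3 was 1.79-fold higher distally (1.38 to 2.31) and Hapln3 at a ratio of 0.774 (0.634 to 0.942). All 6 kept their direction under each of 7 other ways of selecting or weighting the cells, with Acan between -1.38 and -1.03 and Hapln1 between -1.36 and -1.0 in log2. Epithelial-like cells were unevenly spread, with 8.43% of proximal and 0.805% of distal cells, and chondrocyte-like cells were 6.41% and 5.20%.

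To see which cells carried these UMIs, each library was clustered without the 8 genes, the pathway genes, Hic1 or the reporter, and clusters were named "X-like" from marker genes. Unnamed clusters held 18.9% to 77.2% of the cells of a sorted library, 53.6% in the E16.5 proximal and 43.6% in the distal segment, so classes are not a full account of the limb. Chondrocyte-like clusters were found in all libraries but E12.5. The marker Col2a1, the main collagen of cartilage, was at 462 CPM in them at E11.5, 1337 at E13.5, 3125 at E14.5, 23186 in the E16.5 proximal and 8195 in the distal segment. Matn1, a matrilin of more mature cartilage, had no UMI in these cells at E11.5 and was at 172, 793, 7132 and 619 CPM in the same later order, and Col10a1, the collagen of hypertrophic cartilage, was at 91.8 CPM in the proximal segment and under 3 CPM in the chondrocyte-like cells of every other library. At E11.5, 7 of 11 chondrocyte markers were above the rest of the library, 9 of 11 in the whole limb libraries, and 11 of 11 in each later sorted library with the class.

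From E11.5 to the E16.5 proximal segment, versican fell in chondrocyte-like cells while aggrecan and its link protein rose. Vcan was at 455 CPM at E11.5 (619 cells), 320.5 at E13.5 (1154 cells), 212 at E14.5 (770 cells) and 75.1 in the E16.5 proximal segment (712 cells), 6.06-fold lower at the end (5.62 to 6.53). Acan was at 3.0, 72.8, 192 and 1537 CPM in the same cells, 512-fold higher at the end (305 to 936) from 14 UMIs. Hapln1 was at 0.429, 38.9, 199 and 1784 CPM, a ratio of 4158 that rests on 2 UMIs at E11.5 (interval 1151 to 34339). The E11.5 cells had Acan at 0 to 4.93 and Hapln1 at 0 to 0.438 CPM over other clusterings or cell selections, so the size of both ratios is not fixed by these data.

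The counting intervals of the 4 stages were apart for each of the 3 genes, and the order of Vcan was the reverse of that of Acan and Hapln1. For Vcan the place of E11.5 in this order depends on how the class was drawn. Its range over other clusterings or cell selections, 228 to 560.4 CPM, takes in the whole E13.5 range (263 to 322 CPM). It also overlaps the E14.5 range (209 to 234 CPM). The E13.5, E14.5 and proximal E16.5 ranges (the last 24.6 to 116 CPM) kept their falling order without overlap. At E12.5 an unnamed cluster of 469 cells led by Lect1, Col9a3 and Matn4 had the highest levels of both lecticans in its library, Vcan at 410.3 CPM and Acan at 15.8 CPM. From E13.5 to E14.5 Hapln1 rose 5.12-fold (4.51 to 5.83) and Acan 2.64-fold (2.39 to 2.91). Other clusterings or cell selections gave Hapln1 a range of 32.8 to 68.3 CPM on the earlier day and 169 to 212 on the later, and Acan 60.9 to 115 and 172 to 201 CPM, so the rises are smaller at the ends of these ranges. From E14.5 to the E16.5 proximal segment, both with the same kit but not the same region, Acan rose 8.01-fold (7.66 to 8.39), Hapln1 8.97-fold (8.58 to 9.38) and Vcan fell 2.83-fold (2.63 to 3.05). Distal E16.5 cells of the class had Vcan at 259.6 CPM, above E14.5, so this fall holds for the proximal segment only.

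**Figure D2:**
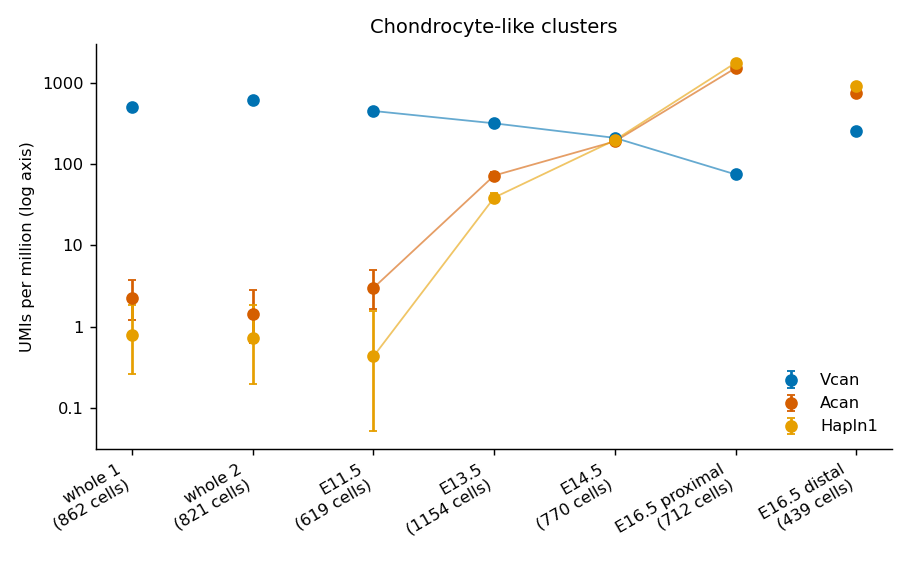
Vcan, Acan and Hapln1 in chondrocyte-like clusters of 7 libraries (UMIs per 1000000, log axis, exact 95% counting intervals as bars), with the number of cells of each library under its name. Vcan goes from 455 at E11.5 to 75.1 in the E16.5 proximal library while Acan goes from 3.0 to 1537 and Hapln1 from 0.429 to 1784, and in the distal library Acan and Hapln1 lie between E14.5 and proximal while Vcan, at 259.6, lies above both.

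The share of a gene's UMIs that came from this class also shifted, and it mixes the size of the class with the level in it. Chondrocyte-like cells held 34.7% of Vcan UMIs at E11.5, where they were 19.6% of cells. They held 1.14% in the E16.5 proximal segment, where they were 6.41% of cells. They held 72.4% of Acan and 77.0% of Hapln1 UMIs in the latter, and 65.0% and 70.6% in the distal segment. After thinning, 93.4% of them held an Acan and 96.8% a Hapln1 UMI in the proximal segment (median 18174 UMIs a cell before thinning). The 612 epithelial-like cells of that library led by Krt1 (median 46116) had 0.980% for each gene. This is only a rough background, as whole limb epithelial-like cells did hold Hapln1 (given below). An unnamed proximal cluster of 324 cells led by Krt14 had Acan in 2.16%. Proximal fibroblast-like and dermal fibroblast-like cells, at 0.690% and 0.613% for Acan, were under both of these shares.

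The residual Vcan of proximal chondrocyte-like cells was uneven. The 87 of them with the highest doublet scores of the library had 272 CPM, and the other 625 had 24.6 CPM, beside 28.5 CPM in epithelial-like cells (15.3 to 40.1 over other clusterings or cell selections). Those 625 cells had Acan at 1698 and Hapln1 at 1988 CPM. Over other clusterings or cell selections, Vcan in chondrocyte-like cells was at 228 to 560.4 CPM at E11.5 and 24.6 to 116 CPM in the proximal segment, so the fall was seen in each, and its size varied.

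The E14.5 class was made of distinct clusters. The 187 cells led by Matn1 and Lgals3 had Acan at 519, Hapln1 at 712 and Vcan at 84.7 CPM. Acan and Hapln1 were below those of the proximal E16.5 class. That class had Vcan at 75.1 CPM, or 24.6 CPM without its cells of highest doublet score. The 583 cells led by Cytl1 and Otor had Acan at 88.7, Hapln1 at 37.5 and Vcan at 253 CPM, near that of E13.5. At E13.5 the clusters differed less: 658 cells led by Matn1 and Gdf10 had Acan at 93.1, Hapln1 at 51.6 and Vcan at 279 CPM, and 496 cells led by Gdf5, a gene of the joint interzone, had 44.6, 21.3 and 378 CPM.

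The other members were low in chondrocyte-like cells. Has2 rose from 2.15 CPM (10 UMIs) at E11.5 to 21.1 CPM in the E16.5 proximal segment, and Cd44 was at 1.72 CPM (8 UMIs) and 15 CPM. Proximal Cd44 was at 2.70 to 30 CPM over other clusterings or cell selections and at the low end once the highest doublet scores were removed, where E11.5 had 1.23 to 4.74 CPM, so no rise of Cd44 can be read in this class. Both were below the E16.5 library totals of 43.4 and 96.3 CPM. Has1, with 1 UMI at E11.5 and 39 in the proximal segment, stayed at 2.79 CPM or below.

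Chondrocyte-like cells also differed between the segments. Distal cells (439) had Vcan at 259.6 CPM, 3.46-fold above proximal cells (3.21 to 3.73), Acan at 765, 2.01-fold lower (1.95 to 2.07), and Hapln1 at 917, 1.95-fold lower (1.89 to 2.00). Has2 was 1.24-fold higher distally (1.03 to 1.49; 24.7 to 45.4 against 20.2 to 23.1 CPM over other clusterings or cell selections), and the ratio for Cd44, 1.06, had an interval of 0.839 to 1.33 that included 1. The proximal cells were led by Col10a1 and Matn1 and the distal ones by Matn1 and Col2a1, so the class was not made of cells of the same maturity, and the part of maturity in these differences was not tested. Without the highest doublet scores Vcan was at 245 CPM distally and 24.6 CPM proximally, and over other clusterings or cell selections at 178 to 381 and 24.6 to 116 CPM. The distal levels over other clusterings or cell selections were 543 to 1186 CPM for Acan and 654 to 1469 CPM for Hapln1, ranges that overlap the proximal ranges of 1109.5 to 1698 and 1237 to 1988 CPM, so the size and, at the edges, the order of the difference depend on how the class was drawn.

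**Figure D3:**
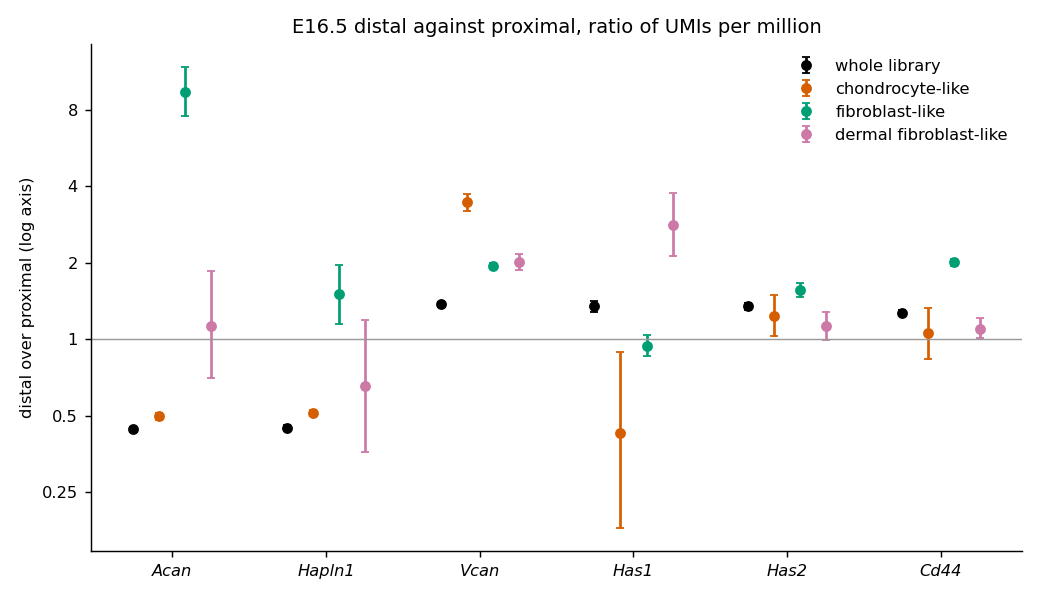
Ratio of UMIs per 1000000, E16.5 distal over proximal (log axis), for 6 members in the whole libraries and within chondrocyte-like, fibroblast-like and dermal fibroblast-like cells, with exact 95% intervals as bars and a line at 1. Acan and Hapln1 lie below 1 in the libraries and in chondrocyte-like cells, while Vcan lies above 1 in each of the 4 series.

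In the proximal segment Acan was also found in clusters not named chondrocyte-like. The 253 tenocyte-like cells, led by Tnn, Cilp2 and Fmod, had Acan at 471, Hapln1 at 341 and Vcan at 60.5 CPM, and 65.2% of them held an Acan UMI after thinning. A mitotic-like cluster of 307 cells led by the tendon gene Scx had Acan at 603 and Hapln1 at 653 CPM. An Acan UMI was in 38.4% of its cells after thinning, and the cartilage gene Matn3 was among its leading genes, and whether dividing chondrocytes were in it was not tested. The 511 distal tenocyte-like cells, whose leading genes were the mast cell genes Cma1 and Cpa3 before the tendon genes Tnmd and Scx, had 40.0 and 13.1 CPM, 11.8-fold (10.5 to 13.2) and 26.0-fold (21.6 to 31.6) lower. Over other clusterings or cell selections the proximal tenocyte-like level was 64.3 to 479.6 CPM for Acan and 9.19 to 341 CPM for Hapln1, so this difference between segments rests on which cells the class took in. An unnamed proximal cluster of 701 cells led by the tendon genes Tnmd, Cilp and Scx had Acan at 32.3 and Hapln1 at 8.02 CPM, near the distal levels.

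Osteogenic-like cells also held some Acan, well below cartilage. Those of the distal segment (309) had Acan at 44.0 and Hapln1 at 13.9 CPM, where chondrocyte-like cells of that library had 765 and 917 CPM, and Acan ran from 44.0 to 106 CPM over other clusterings or cell selections. Those of E14.5 (667) had 20.5 and 2.31 CPM, where chondrocyte-like cells had 192 and 199 CPM. Joint-like cells of the distal segment (181, led by Btc and Gdf5) had Acan at 94.1, Hapln1 at 125, Vcan at 747 and Has2 at 112 CPM.

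Fibroblast-like cells were high in Has1, Has2 and Cd44. In the E16.5 proximal segment the 1594 fibroblast-like cells, 14.3% of the cells, held 60.9% of Has1, 26.4% of Has2 and 37.4% of Cd44 UMIs. Has3, at 0.390 CPM, was no higher in them than in the library. Their levels were 52.7 CPM for Has1 (50.3 to 55.3), 80.7 for Has2, 570.3 for Vcan and 254 for Cd44 (248 to 259). At E14.5 the 477 cells of this class had Has1 at 1.30, Has2 at 26.8, Vcan at 317 and Cd44 at 32.7 CPM.

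From E14.5 to E16.5 proximal, fibroblast-like Has1 thus rose 40.5-fold from 10 UMIs (22.0 to 84.6), Cd44 7.75-fold (6.84 to 8.83), Has2 3.01-fold (2.61 to 3.48) and Vcan 1.80-fold (1.72 to 1.88), in libraries of the same kit. Over other clusterings or cell selections the E14.5 class had Has2 at 20.1 to 59.4 and Cd44 at 25.4 to 59.4 CPM and the proximal class Has2 at 63.2 to 81.3 and Cd44 at 222 to 299 CPM, so the Has2 rise was small at the ends of these ranges. Those of Has1 were 0.638 to 1.83 CPM at E14.5 and 38.1 to 55.9 CPM in the proximal class. Has1 and Cd44 were highest in 1 cluster of 491 cells led by Ly6a and Pi16, at 92.9 and 452 CPM. The other fibroblast-like cluster, 1103 cells led by Ccl11, had 30.2 and 142 CPM. After thinning, 9.16% of fibroblast-like cells held a Has1 UMI against 0.490% of epithelial-like and 0.281% of chondrocyte-like cells, and 38.1% held a Cd44 UMI against 2.25% of chondrocyte-like cells.

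In the distal segment the 480 fibroblast-like cells, which held 21.1% of Has1 and 29.2% of Cd44 UMIs, had Vcan at 1109, Cd44 at 509, Has2 at 127 and Has1 at 49.8 CPM. Against the proximal class Vcan was 1.94-fold (1.90 to 1.99), Cd44 2.01-fold (1.94 to 2.08) and Has2 1.57-fold (1.47 to 1.67) higher, and Has1 was at a ratio of 0.944, with an interval of 0.856 to 1.04. Acan was 9.41-fold higher distally (7.55 to 11.8), at 30.2 against 3.21 CPM, and the proximal value was under that of epithelial-like cells (7.11 CPM). The ranges for Acan were 17.8 to 33.7 CPM distally and 2.46 to 16 CPM proximally, so the size of this difference depends on how the class was drawn. The distal class was 1 cluster, with Anxa8 and Pi16 among its leading genes, and the proximal one held both clusters above. Beside the proximal cluster led by Ly6a and Pi16 alone, distal Cd44 was 509 against 452 CPM and Has1 49.8 against 92.9 CPM. Over other clusterings or cell selections Cd44 was at 217 to 532 CPM distally and 222 to 299 CPM proximally, Has2 at 83.1 to 128 and 63.2 to 81.3 CPM, and Has1 at 24.4 to 52.7 and 38.1 to 55.9 CPM, so these differences depend on the make-up of the class.

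Pericyte-like cells, with the contractile genes Acta2 and Myh11 among their leading genes, had the highest Has1 of any cluster of the distal segment. The 223 such cells of the E16.5 distal segment had Has1 at 86.9 CPM (79.3 to 95.2), Has2 at 108, Vcan at 553 and Cd44 at 143 CPM. At E14.5 the 547 pericyte-like cells had Has1 at 1.52 CPM (13 UMIs) and Cd44 at 29.0 CPM. The ratios were 57.3 (33.2 to 108) for Has1, 4.95 (4.29 to 5.74) for Cd44 and 1.98 (1.75 to 2.25) for Has2. Over other clusterings or cell selections the distal class had Has1 at 28.2 to 93.8, Has2 at 57.2 to 115 and Vcan at 214 to 564 CPM, so the size of the Has1 ratio and the rise of Has2 over 54.3 CPM at E14.5 depend on how the class was drawn. An unnamed distal cluster of 479 cells led by Dpep1 and Dpp4 had Has1 at 43.6 CPM, and an unnamed proximal cluster of 165 cells led by Rgs5 that also had Myh11 among its leading genes had 8.08 CPM, below its library total.

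Dermal fibroblast-like cells of the E16.5 proximal segment had the highest Hapln3 of the named classes and less versican than fibroblast-like cells. Proximal E16.5 cells of this class (816) had Vcan at 89.9 CPM, 2.26-fold below the same class at E14.5 (2.12 to 2.42), while fibroblast-like Vcan rose over that step. Over other clusterings or cell selections dermal Vcan was at 85.3 to 206 CPM in the proximal segment and 194 to 244 CPM at E14.5. These ranges overlap, so the size and, at the edges, the direction of that fall depend on how the class was drawn. The proximal class was 1 cluster led by Plxna4 and Col7a1. A proximal cluster of 344 cells led by Sp5, Nrgn and Lix1, leading genes of the E14.5 class, stayed unnamed. Hapln3 was at 5.62 CPM in the proximal class (66 UMIs), 3.55-fold above E14.5 (2.30 to 5.6; 3.19 to 5.66 against 1.21 to 1.81 CPM over other clusterings or cell selections), and in the distal class (1017) at 2.23 CPM. Of the 37 distal UMIs, 17 came from a cluster of 85 cells led by Gal and Sox2, at 13.1 CPM, and the other 932 cells were at 1.31 CPM. These are few UMIs, and 1.96% of the proximal cells held one after thinning. Cd44 of the proximal class, at 68.3 CPM, was close to the 68.7 CPM of epithelial-like cells, which express this receptor themselves.

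**Figure D4:**
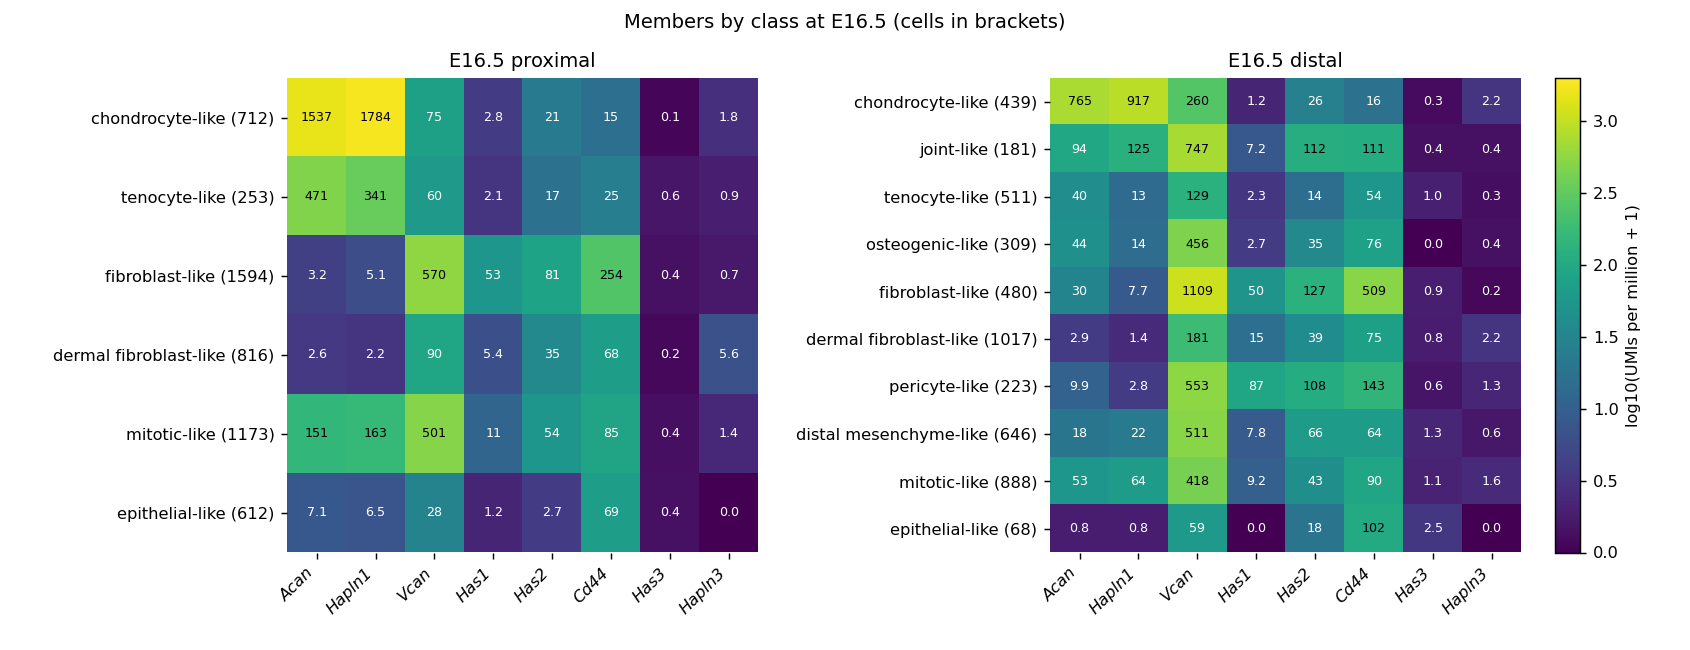
Level of the members by class in the E16.5 proximal and distal libraries, as a colour scale of log10(UMIs per 1000000 + 1), with the number of cells of each class in brackets. The chondrocyte-like rows carry Acan and Hapln1 (1537 and 1784 proximal, 765 and 917 distal), and the fibroblast-like rows carry Vcan and Cd44 (570.3 and 254 proximal, 1109 and 509 distal).

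Pairs of members were also counted in single cells. In the thinned E16.5 proximal library, 74.0% of the 1137 cells with an Acan UMI also held a Hapln1 UMI and 80.2% of the 1049 with Hapln1 held Acan, against 2.09% with Hapln1 among cells without Acan. Vcan was found in 16.1% of cells with Acan and in 54.4% of cells without. Of the 1231 cells with Has2, 67.0% held Vcan, against 48.4% of cells without, and of the 2057 with Cd44, 63.9% held Vcan, against 47.4% without. Outside the chondrocyte-like class the Acan and Hapln1 overlap was 41.1% of 472 and 53.9% of 360 cells. In the distal library 53.2% of 543 cells with Acan held Hapln1 and 48.3% held Vcan, against 57.1% with Vcan among cells without Acan. Outside its chondrocyte-like class the first share was 25.7% of 269 cells, and Vcan was in 59.9% of cells with and 57.3% of cells without Acan, whereas outside the proximal chondrocyte-like class Vcan was in 24.2% of cells with and 54.6% of cells without Acan. These shares are given as a description.

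The genes whose pattern was most like each member were sought over 50 library-by-class units of at least 50 cells, by Pearson's r of log2(CPM + 1) among 6464 genes. The units share libraries, depth and kit, so r is a description. Closest to Acan were Hapln1 (0.94), Chad (0.91) and Col11a2 (0.91), and closest to Hapln1 were Acan (0.94), Fam180a (0.93) and Fbln7 (0.92). Closest to Cd44 were Ahnak (0.95), Cast (0.94) and S100a10 (0.94), to Has1 Cxcl1 (0.90), Col5a3 (0.89) and Tnxb (0.88), and to Has2 Man1a (0.91), Sptbn1 (0.88) and Arsi (0.88). Vcan had no close partner, with Pcdh7, Nrep and Tmx4 all at 0.77. Between members, Cd44 was at 0.80 with Has1 and 0.78 with Has2, and Vcan was at 0.60 with Has2, 0.22 with Acan and 0.17 with Hapln1.

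At E11.5 the sorted cells could be set against the whole limb, the only comparison with a replicated group. UMIs were summed over cells outside the epithelial-like, endothelial-like, myogenic-like, glial-like and platelet-gene clusters (3165 sorted, 5084 and 5336 whole limb cells) and tested with edgeR's quasi-likelihood test and Benjamini-Hochberg adjustment over 15107 genes. The lone sorted library was taken to vary like the whole limb ones, with 1 residual degree of freedom. Nothing in the labels says that these replicates came from separate litters, so the p-values measure only the spread between 2 libraries that may be technical replicates. Of the 8 members 5 were called, beside 53.5% of all genes (8078, of which 4078 were higher in sorted cells), so the count of members is near the background.

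Has2 and Hapln1 were lower in the sorted library than in both whole limb libraries, and with 1 sorted library the p-values below do not carry over to other sorted samples. Has2 had 2.19 CPM in sorted cells against 6.61 and 6.08 CPM, with a log2 difference of -1.71 ± 0.21 (SE; edgeR adjusted p = 7.2e-15), which is 3.28-fold. Hapln1 was at 0.349 CPM (11 UMIs) against 1.5 and 1.65 (70 and 78 UMIs), with a log2 difference of -2.35 ± 0.42 (edgeR adjusted p = 1.1e-07). Both were under the threshold in all 7 other fits, with edgeR, DESeq2 or limma-voom adjusted p of 3.7e-15 to 0.0248 for Has2 and 1.3e-17 to 0.0301 for Hapln1. These fits reuse the same 3 libraries with 1 sorted library, so they show how the call depends on the method and add no replication.

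Cd44 and Acan were higher in the sorted cells, and Hapln3 was lower. Cd44 was at 2.63 CPM against 1.18 and 1.21 (log2 difference 0.96 ± 0.27, edgeR adjusted p = 0.00101, 0.00119 to 0.16 over 7 other fits, 6 of them under the threshold). Acan was at 1.02 CPM against 0.386 and 0.275, from 32, 18 and 13 UMIs (1.43 ± 0.44, edgeR adjusted p = 0.00311). It was under the threshold in 4 of 7 other fits and at an adjusted p of 0.85 with cells thinned to 3000 UMIs. Hapln3 was at 0.635 CPM against 1.01 and 1.27 (-1.02 ± 0.38, edgeR adjusted p = 0.0168), with 3 of 7 other fits under the threshold (0.0152 to 0.269).

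Vcan, Has1 and Has3 did not pass the threshold. Vcan was at 194 CPM against 190 and 203, with a log2 difference of -0.20 ± 0.10 (edgeR adjusted p = 0.076, 0.0388 to 0.374 over 7 other fits). Has1 and Has3 rested on 6 to 25 UMIs a library (edgeR adjusted p = 0.275 and 0.919). Within chondrocyte-like cells alone, a selection made after seeing the data and with no test, Has2 was at 2.15 CPM in sorted cells against 7.50 and 7.16, Hapln1 at 0.429 against 0.798 and 0.716, Acan at 3.0 against 2.24 and 1.43, and Cd44 at 1.72 against 1.44 and 1.79 CPM. These cells were 19.6% of the sorted and 15.8% and 14.4% of the whole limb cells. A sorted cluster of 224 cells was led by the platelet genes Ppbp and Pf4 but otherwise by mesenchymal genes and stayed in the sum, and without it the sorted levels were 2.56 CPM for Cd44, 1.11 for Acan, 0.311 for Hapln1, 0.656 for Hapln3 and 2.07 for Has2, close to those with it.

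**Figure D5:**
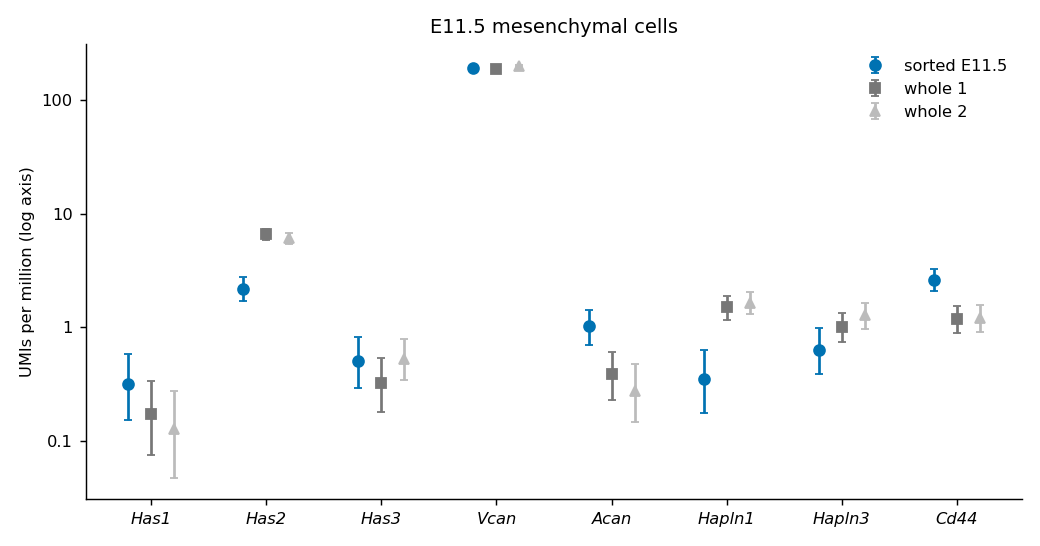
Level of the 8 genes in E11.5 mesenchymal cells (UMIs per 1000000, log axis, exact 95% counting intervals as bars) in the sorted library and in whole limb libraries 1 and 2. Has2 and Hapln1 are lower in the sorted library (2.19 and 0.349) than in both whole limb ones, Cd44 is higher (2.63 against 1.18 and 1.21), and Vcan lies at 190 to 203 in all 3.

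Part of the whole limb Hapln1 came from very few cells outside the mesenchyme. In the whole limb libraries, 19 and 24 endothelial-like cells (0.348% and 0.422% of cells) had Hapln1 at 186 CPM (134 to 249.9) and 189 CPM (139.5 to 251), 29.7% and 30.8% of its UMIs. Another 16 and 21 epithelial-like cells, led by Wnt6, Fgf8 and Krt5, had 241 and 171 CPM, 21.4% and 18.6%. Myogenic-like cells (314 and 293) were at 0.249 and 0.282 CPM, 1 UMI in each library. At E14.5, 15 endothelial-like cells that had passed the sort had 27.7 CPM (14.8 to 47.4). These groups are under 50 cells each, but the 2 whole limb libraries gave like values, and the edgeR comparison above leaves them out.

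The wider pathway, 59 genes for hyaluronan precursors, turnover and binding, other lecticans and link proteins, chondroitin sulfate synthesis and sulfation, and ADAMTS proteases, was read from the same comparisons. At E11.5, 19 of the 46 tested were higher and 6 lower in sorted cells by edgeR, a share close to the 53.5% of all genes called, with a median log2 difference of 0.18 beside 0.01 over all genes tested. Largest were Csgalnact1, which starts chondroitin sulfate chains (3.78 CPM against 0.257 and 0.275, log2 difference 3.63), the protease Adamts15 (6.16 against 0.901 and 0.868, 2.61), the chain polymerase Chsy3 (11 UMIs against 5 and 3, 1.82) and Ugp2, which makes UDP-glucose (245 against 79.0 and 70.8, 1.53). Lower were Adamts20 (-1.22), the hyaluronidase Tmem2 (-0.84), Xylt1, which adds the first sugar of the linkage (-0.57), and Impad1 (-0.43), with edgeR adjusted p of 9.3e-04, 2.6e-12, 0.0142 and 8.9e-05.

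Over the stages, pathway genes past 2-fold were few at each step. From E11.5 to E12.5, beside 3.27% of all genes, 2 of 30 rose (Csgalnact1 3.84-fold and Adamts15 2.48-fold) and 1 fell (Hmmr, a hyaluronan receptor and mitotic gene, 2.03-fold). From E12.5 to E13.5, beside 3.37% of all genes, 4 of 34 rose and none of the 34 fell: Papss2, which makes the sulfate donor (3.53-fold), Csgalnact1 (2.65-fold), the sulfotransferase Chst12 (2.12-fold) and Itih5 (2.01-fold). From E13.5 to E14.5, beside 10.3% of all genes, 2 of 35 rose (Xylt1 2.39-fold, Itih5 2.24-fold) and 2 fell (Gfpt2 2.78-fold, Papss2 2.65-fold), at the change of kit.

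From E14.5 to the E16.5 proximal segment, 6 of 37 rose and 2 fell, beside 13.9% of all genes. The largest rises were of Itih5, a hyaluronan-binding heavy chain (6.91-fold), Gfpt2 (3.24-fold), the chondroitin 4-sulfotransferase Chst11 (2.83-fold) and the aggrecanase Adamts4 (2.77-fold), and Csgalnact1 (2.22-fold) and Adamts15 (2.03-fold) fell. Across the whole span 13 of 36 rose and 2 fell, a share close to the 43.6% of all genes called, with a median log2 ratio of 0.74 beside -0.52 over all genes tested, led by Itih5 (89.4-fold), Papss2 (7.15-fold), Adamts5 (5.35-fold) and Adamts4 (4.53-fold), while Hmmr (2.33-fold) and Hyal2 (2.25-fold) fell. Between the segments, Chst15 (2.25-fold) and Adamts4 (2.22-fold) were higher distally and Chst11 (2.21-fold) proximally, 3 of 37 beside 9.03% of all genes.

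For 9 pathway genes, chosen after their values were seen, levels in 2 classes of the E16.5 proximal segment are given as examples. Chondrocyte-like cells had Papss2 at 268, the sulfate transporter Slc26a2 at 158, Chst11 at 122, Csgalnact1 at 119 and Xylt1 at 111 CPM. Fibroblast-like cells had the same genes at 10.5, 10.6, 2.13, 7.52 and 3.09 CPM. They had Tnfaip6, which transfers heavy chains to hyaluronan, at 447, Itih5 at 385, Adamts1 at 205 and Adamts5 at 176 CPM, where chondrocyte-like cells had 38.5, 46.0, 31.3 and 7.09 CPM.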

How the data were processed

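Forelimb cells of 8 libraries were profiled with the 10x 3′ assay. The UMI counts per gene and cell barcode were deposited by the authors as sparse matrices on mm10, with Cell Ranger 3.0.2 named in the headers of 5 sorted libraries and 6.0.1 in that of the E16.5 distal library. The whole limb matrix headers name no version, and the study states one further version for its single-cell data without saying for which libraries. The matrices hold unnormalised counts. The study removed low-UMI and high-mitochondrial cells and small keratin-positive clusters from its E16.5 data, and the latter cells were kept here.

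Barcodes with at least 3000 UMIs and at most 10% mitochondrial UMIs were kept. Levels are UMIs per 1000000 (CPM) of the summed kept cells with exact Poisson 95% intervals, ratios have exact conditional intervals, and shares of cells were taken after thinning each cell to 3000 UMIs. Where a sum held no UMI, its upper limit came from the same exact Poisson interval. Ratios within a class were taken only where both sides held a UMI. Each library was clustered (scanpy 1.11.5, 2000 variable genes, 50 components, 25 neighbours, Leiden resolution 1) without the 8 members, the 59 pathway genes, Hic1 and transgenes. A cluster was named by the class with the highest share of its markers raised, from 3 markers up. A cluster stayed unnamed where another class had more markers among its leading genes. The same held where its UMIs a cell were low and no marker of its own class was among them. Doublets were left in, and removing the highest scrublet scores (0.8% per 1000 cells) was an alternative. After seeing the data, muscle fibre-like and platelet-gene clusters were left unnamed. Clusters led mostly by platelet genes, or by epithelial genes, were left out of mesenchymal sums. The sorted E11.5 cluster of 224 cells led by Ppbp and Pf4 but otherwise by mesenchymal genes stayed in.

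E11.5 sums were tested with edgeR 4.0.16 (quasi-likelihood, TMM, Benjamini-Hochberg, threshold 0.05), with DESeq2 1.42.0 and limma 3.58.1 as alternatives. On simulated counts for that comparison (15107 genes, 200 changed 4-fold), edgeR recovered 92.5% of changed genes with 11 false calls, DESeq2 80.5% with 2 and limma 93% with 21. The simulation gave every library the same spread and changed far fewer genes than were called in the data. It therefore does not test whether the lone sorted library varies like the others. Other comparisons have 1 library a side and no test. The rule named all 8 members in every comparison (those under 10 CPM are given mainly by their levels), with up to 4 pathway genes a direction by size among those past the threshold at 10 CPM or more (at E11.5, past the adjusted p), and, for the 6 members at 10 CPM or more in a library, 3 most alike genes among those reaching 50 CPM in a unit. Pathway levels by class were chosen after their values were seen. The members, lists and tests were chosen with earlier results of these data known.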

Additional observations from a re-analysis of the deposited data

How the results depend on the processing

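With DESeq2, 4899 genes and 2 members were called between sorted and whole limb cells at E11.5, and with no filter on low counts 3920 genes and 3 members. The other 5 fits called 6213 to 8088 genes and 4 or 5 members. Without a minimum CPM, 3 members were past 2-fold from E11.5 to E12.5, 5 from E12.5 to E13.5 and 5 from E13.5 to E14.5. The share of all genes was not counted without that minimum. With cells weighted equally, and with cells thinned, 2 were past 2-fold from E12.5 to E13.5. Outside chondrocyte- and epithelial-like clusters, 1 was past 2-fold between the E16.5 segments, Acan at a log2 ratio of -1.03, and Hapln1, at -1.0, just missed it. Of class levels, 305 of 1032 alternative values fell outside the counting interval of the reported one. Leaving out each whole limb library in turn gave log2 ratios of CPM, with no test, of 0.89 to 1.32 for Has1, -1.59 to -1.47 for Has2, -0.06 to 0.66 for Has3, -0.06 to 0.03 for Vcan, 1.40 to 1.88 for Acan, -2.24 to -2.10 for Hapln1, -1.0 to -0.67 for Hapln3 and 1.13 to 1.16 for Cd44. These ratios lack the TMM scaling of the edgeR fit, so they are on another scale than its log2 differences. No paired analysis was possible because the sorted E11.5 group is 1 library with no replicate number. For Has1 before E16.5, Has3 and Hapln3, the few UMIs left wide intervals. The causes of these changes were not tested.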
